A study of Homo sapiens with 9 samples.

Results

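The cyclin D pathway was followed in U87 cells through 10 genes: the D cyclins CCND1, CCND2 and CCND3, the kinases CDK4 and CDK6, the INK4 inhibitors CDKN2A, CDKN2B and CDKN2C, the inhibitor CDKN1B (p27) and RB1. They were chosen by gene symbol, and all 10 were among the 58735 genes of the count table. D cyclins bind and activate CDK4 and CDK6 when growth factors are present, and the active kinases phosphorylate the RB1 protein, which then releases E2F transcription factors that switch on genes for DNA replication. INK4 proteins bind CDK4 and CDK6 and block them, whereas p27 binds complexes of cyclins with CDK2 and with CDK4 or CDK6. In glioblastoma this pathway is commonly altered, through loss of CDKN2A and CDKN2B, gain of CDK4 or loss of RB1.

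U87 is an established human glioblastoma line, and it is known for lacking the segment of chromosome 9 that holds CDKN2A, CDKN2B and MTAP. RNA sequencing gave 9 libraries, 3 for each of 3 stable cell populations: cells with the PCDH vector alone (PCDH, a vector name), cells with the R132H mutant of isocitrate dehydrogenase 1 (IDH1mt), and cells with that mutant carrying the C269S change (C269S), which puts a serine in place of a cysteine. The series asked how palmitoylation of the mutant enzyme by itself affects transcript levels. All cells grew in the same serum-containing medium, there was no group given unmutated IDH1, and the labels do not say how many selected lines each construct had or whether libraries came from separate cultures. The p-values therefore reflect only how far these libraries vary, possibly for technical reasons, and a construct cannot be told apart from its selected line.

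Total counts lay between 19108925 and 24803711 per library. IDH1 checked the labels: its level in CPM (reads scaled by TMM to a common library size) was 111 ± 7.97 in PCDH, 677 ± 16.5 in IDH1mt and 739 ± 30.3 in C269S (SD over 3 libraries each), so it separated PCDH from both mutants. The C269S libraries also lay above every IDH1mt library, a log2 difference of 0.13 that did not pass (edgeR adjusted p = 0.227, unadjusted p = 0.0284). Of 7 glioma markers, VIM, CD44 and NES were abundant, OLIG2 and GFAP were low (means of 8.02 and 3.49 CPM in PCDH), and S100B (at most 7 reads) and SOX2 (at most 3 reads) were near 0 in every library. CD44 was 1.25-fold higher in IDH1mt than in PCDH (edgeR adjusted p = 4.5e-06) and 1.16-fold higher in C269S than in PCDH (adjusted p = 0.0124), the latter lost when replicate 1 or 2 of either of these groups was left out (adjusted p from 0.0637 to 0.0926). That C269S call was also lost with only the 6 libraries of the 2 groups (edgeR adjusted p = 0.0503) and with limma on log2 FPKM (0.075 and 0.0727). VIM was 1.12-fold lower in IDH1mt than in PCDH (adjusted p = 0.0195), lost without PCDH replicate 1 or any 1 IDH1mt library (adjusted p from 0.0566 to 0.121). Markers of other cell types summed to between 9.36 and 11.4 CPM over the 8 genes in any library, and CD3E was at 0 in all 9 libraries. The endothelial marker PECAM1 was the largest part, with means of 5.76, 6.84 and 5.98 CPM in PCDH, IDH1mt and C269S. Its IDH1mt libraries lay above every PCDH library, a log2 difference of 0.25 that did not pass (edgeR adjusted p = 0.357). Of these 8 marker genes, 5 could be tested and edgeR called none in any comparison, with 1 (EPCAM, IDH1mt against PCDH) at an unadjusted p under 0.05.

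Per unit of gene length, on the authors' FPKM scale, CCND1 stood highest of the 10 genes, with 122 ± 3.94 FPKM in PCDH, rank 221 of 13361 tested protein-coding genes. CDKN1B followed with 24.2 ± 0.861 FPKM, CDK4 with 21.3 ± 1.07 FPKM and CCND3 with 15.7 ± 1.27 FPKM. RB1 had 5.48 ± 1.03 FPKM and CDK6 4.69 ± 0.442 FPKM, and these neighbours in the order overlapped between libraries. CCND2 had 0.0354 ± 0.00705 FPKM, and the 3 INK4 genes were at 0 in every library. The plot of the 10 genes by library shows these levels on the CPM scale.

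**Figure D1:**
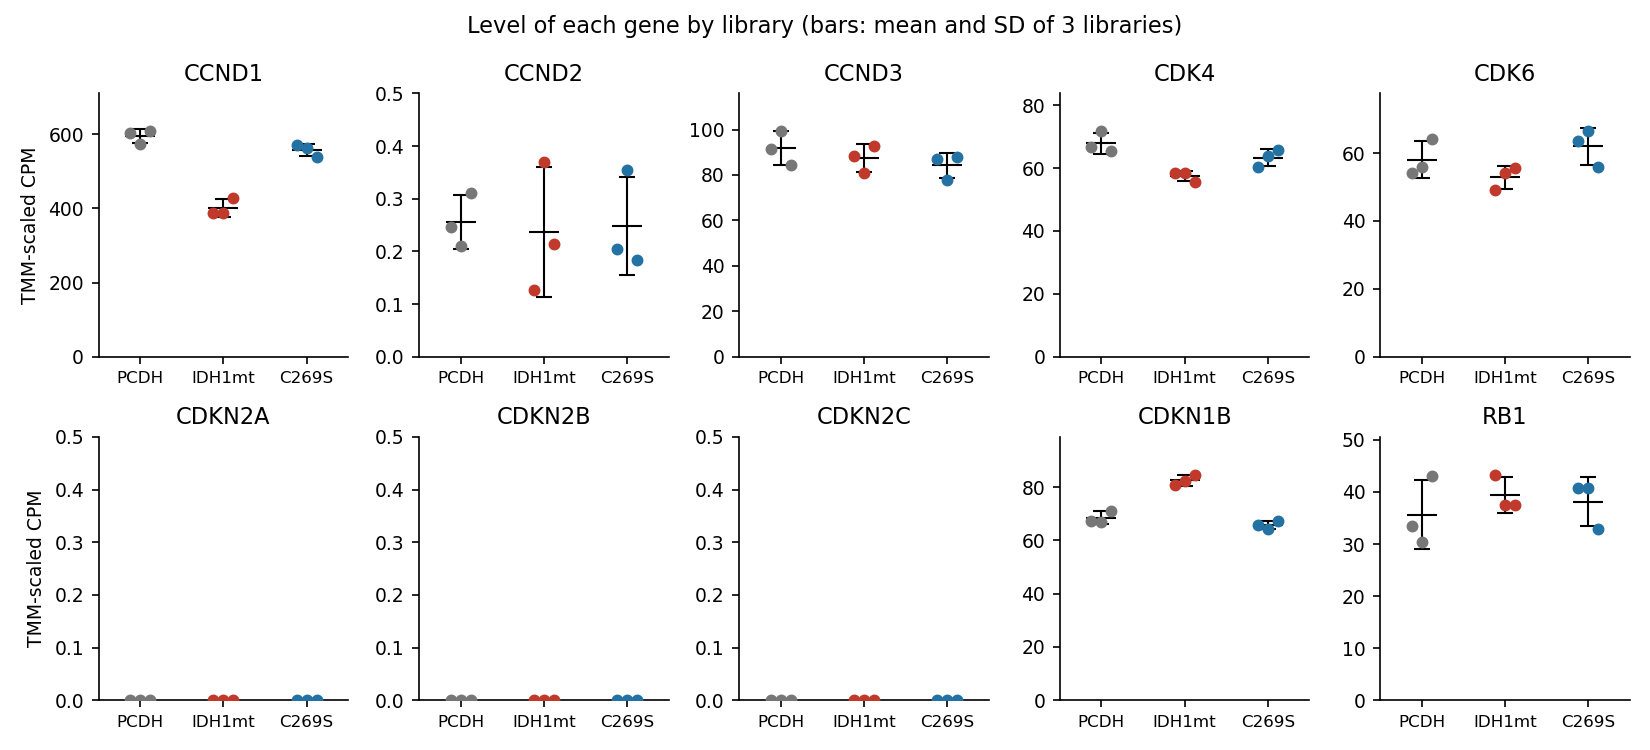
Level of each of the 10 genes in TMM-scaled CPM (vertical axis, from 0, own scale per gene) in the 3 libraries of PCDH, IDH1mt and C269S (points), with mean and SD (bars). CCND1 sat between 387 and 428 CPM in IDH1mt, below every other library, CDKN1B was highest in the 3 IDH1mt libraries, and CDKN2A, CDKN2B and CDKN2C were at 0 throughout.

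CCND1 encodes cyclin D1 (ENSG00000110092, chromosome 11, 69641087 to 69654474, plus strand, GRCh38). Its level was 603, 572 and 608 CPM in the PCDH libraries, 387, 387 and 428 CPM in the IDH1mt libraries and 571, 562 and 539 CPM in the C269S libraries. Every IDH1mt library was lower than every library of the other groups, and the C269S libraries lay just below the lowest PCDH library without overlap. CCND1 was 1.48-fold lower in IDH1mt than in PCDH (log2 fold change -0.57 with an SE of 0.05, adjusted p = 2.3e-09 by edgeR's quasi-likelihood test with Benjamini-Hochberg adjustment). It was 1.39-fold higher in C269S than in IDH1mt (log2 fold change 0.48 with an SE of 0.05, adjusted p = 1.8e-07), a direct test of the difference between the mutants. Between C269S and PCDH the log2 difference of -0.09 did not pass (95% interval -0.20 to 0.02, adjusted p = 0.513). The gene LTO1, on the opposite strand, overlaps CCND1 and averaged 399 reads a library against 11128 for CCND1. Without a stated strand setting, reads in an overlap cannot be assigned, and the part of shared reads in the CCND1 value was not tested. LTO1 was lower in every IDH1mt library than in any PCDH library, in the direction of CCND1, with a log2 difference of -0.26 that did not pass (adjusted p = 0.111, unadjusted p = 0.0216).

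CCND3, cyclin D3 (ENSG00000112576, chromosome 6, 41934933 to 42050357, minus strand), was measured at 91.4, 99.3 and 84.5 CPM in PCDH, 88.5, 81.0 and 92.9 CPM in IDH1mt and 86.8, 77.7 and 88.1 CPM in C269S. The 3 groups overlapped. Its log2 difference between IDH1mt and PCDH was -0.07 (95% interval -0.22 to 0.08, adjusted p = 0.596), and that between the mutants was -0.05 (-0.20 to 0.09). The CCND3 intervals exclude a change of the size measured for CCND1.

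CCND2, cyclin D2 (ENSG00000118971, chromosome 12, 4273772 to 4305350, plus strand), had 5, 5 and 7 reads in the PCDH libraries, 3, 9 and 4 in IDH1mt and 4, 7 and 4 in C269S. These 48 reads in all were too few for the filter on low counts, so CCND2 was not tested, and no difference between groups was detectable at this depth.

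The D-cyclin transcripts were therefore mostly CCND1. Per length, CCND1 made up 88.6 ± 1.14% of their sum in PCDH, 84.6 ± 0.572% in IDH1mt and 88.8 ± 0.815% in C269S (SD, n = 3 each). These shares depend on 1 deposited length per gene, 4830 bases for CCND1, 7157 for CCND2 and 5802 for CCND3. The summed D-cyclin level was 139, 135 and 140 FPKM in PCDH, 94.8, 93.7 and 104 FPKM in IDH1mt and 132, 129 and 126 FPKM in C269S. No library of one group reached the range of another, and each of the 3 pairs of groups gave an exact two-sided permutation p = 0.1, the smallest that 3 against 3 allows (adjusted p = 0.18 over the 9 such tests). The CCND1 share was lower in IDH1mt in every library, with the same p = 0.1 against either group, while PCDH and C269S overlapped (exact permutation p = 0.9).

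**Figure D2:**
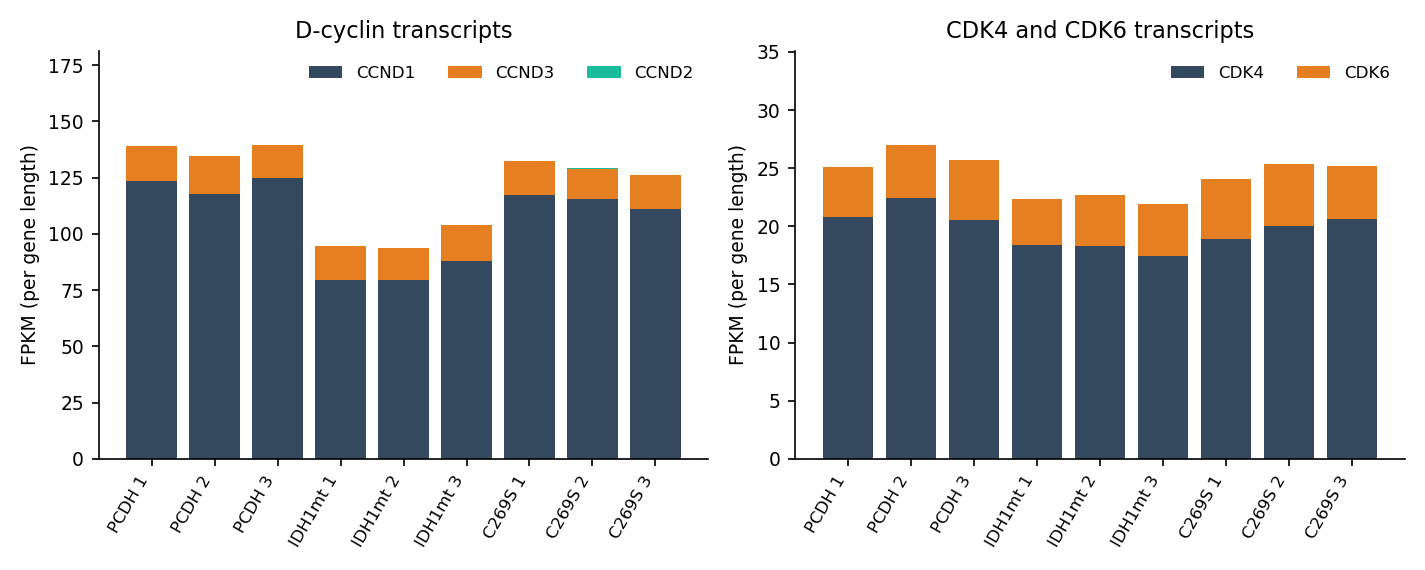
Stacked bars of the authors' FPKM per library for the D cyclins (left) and for CDK4 and CDK6 (right), both axes from 0. The D-cyclin sum is between 93.7 and 104 FPKM in IDH1mt and at least 126 FPKM in all other libraries, and the step is in the CCND1 segment.

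CDK4 (ENSG00000135446, chromosome 12, 57747727 to 57756013, minus strand), a catalytic partner of the D cyclins, was measured at 66.6, 71.8 and 65.5 CPM in PCDH, 58.6, 58.3 and 55.5 CPM in IDH1mt and 60.3, 63.7 and 65.7 CPM in C269S. The IDH1mt libraries lay below all others, and C269S overlapped PCDH. CDK4 was 1.18-fold lower in IDH1mt than in PCDH (log2 fold change -0.24 with an SE of 0.07, edgeR adjusted p = 0.0183). This call was lost without PCDH replicate 2 (adjusted p = 0.103) or without IDH1mt replicate 2 or 3 (adjusted p = 0.0522 and 0.0979). C269S against IDH1mt gave a log2 difference of 0.14 that did not pass (95% interval -0.01 to 0.28, adjusted p = 0.333). TSPAN31 and MARCH9 overlap CDK4 on the opposite strand with means of 805 and 708 reads against 1361 for CDK4. Their log2 differences between IDH1mt and PCDH were 0.05 and -0.20, and neither passed (edgeR adjusted p = 0.754 and 0.156). MARCH9 was lower in every IDH1mt library than in any PCDH library, in the direction of CDK4 (unadjusted p = 0.0361). The part of shared reads in the CDK4 value was not tested.

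CDK6 (ENSG00000105810, chromosome 7, 92604921 to 92836594, minus strand), the other D-cyclin kinase, was measured at 54.1, 55.9 and 64.1 CPM in PCDH, 49.1, 54.0 and 55.5 CPM in IDH1mt and 63.6, 66.5 and 55.9 CPM in C269S. IDH1mt overlapped PCDH, whereas each C269S library was above each IDH1mt library. CDK6 passed in no comparison: its log2 difference was -0.14 between IDH1mt and PCDH (adjusted p = 0.297) and 0.23 between C269S and IDH1mt (95% interval 0.06 to 0.40, adjusted p = 0.111). The latter was called without PCDH replicate 3 (adjusted p = 0.0304), without C269S replicate 3 (adjusted p = 0.0407, log2 difference 0.30) and when only the 6 libraries of the 2 groups were fitted (adjusted p = 0.0355). Per length CDK4 made up 81.9 ± 1.84% of the CDK4 and CDK6 transcripts in PCDH, 80.8 ± 1.37% in IDH1mt and 79.8 ± 1.90% in C269S (n = 3 each), and these shares overlapped between the groups (exact permutation p from 0.2 to 0.5).

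CDKN1B (ENSG00000111276, chromosome 12, 12715058 to 12722371, plus strand), which encodes p27, moved opposite to CCND1. Its level was 67.3, 67.1 and 71.2 CPM in PCDH, 80.7, 82.2 and 84.7 CPM in IDH1mt and 65.8, 64.4 and 67.4 CPM in C269S. The IDH1mt libraries were above all others, and C269S overlapped PCDH. CDKN1B was 1.20-fold higher in IDH1mt than in PCDH (log2 fold change 0.27 with an SE of 0.07, adjusted p = 0.00502) and 1.25-fold lower in C269S than in IDH1mt (log2 fold change -0.32 with an SE of 0.07, adjusted p = 0.00194). Between C269S and PCDH it differed by -0.06 on the log2 scale (95% interval -0.19 to 0.08) and did not pass (adjusted p = 0.802).

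The promoter sequences of CDK4 and CDKN1B are shown because these genes passed the test and have a promoter entry. The 250 bases before the RefSeq start (GRCh38.p14) are given 5′ to 3′ on the gene's strand, from chr12:57752311-57752560 on the minus strand for CDK4 and chr12:12717118-12717367 on the plus strand for CDKN1B. Capitals mark E-boxes (CACGTG, which MYC family proteins can bind) and GC boxes (GGGCGG or its reverse complement, which SP1 can bind).
CDK4: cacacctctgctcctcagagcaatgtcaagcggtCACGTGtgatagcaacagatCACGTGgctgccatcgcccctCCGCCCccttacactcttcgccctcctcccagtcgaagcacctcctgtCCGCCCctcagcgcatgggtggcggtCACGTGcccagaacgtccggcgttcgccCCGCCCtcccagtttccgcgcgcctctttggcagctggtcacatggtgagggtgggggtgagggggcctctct
CDKN1B: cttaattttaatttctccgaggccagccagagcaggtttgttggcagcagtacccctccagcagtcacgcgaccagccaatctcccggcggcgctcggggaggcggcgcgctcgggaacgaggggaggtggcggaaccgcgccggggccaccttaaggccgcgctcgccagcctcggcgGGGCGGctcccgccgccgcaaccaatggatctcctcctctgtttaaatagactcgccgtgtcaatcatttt
The CDK4 window held 3 E-boxes, at positions -216, -196 and -101 from the start, and 3 GC boxes. The CDKN1B window held no E-box and 1 GC box. Of 35116 promoter windows of 300 bases (250 before and 50 after the start), 7.26% held an E-box on either strand, 0.094% held at least 3, and 45% held a GC box, with 3 or more in 15.8%. Of the 10 genes 8 had at least 1 window, CCND1 and CCND2 being the others. An E2F motif (TTTCGCGC or TTTGGCGC) was in none of these windows and in 1.15% of all. The RB1 window (chromosome 13, 48476200 to 48476499) lies well inside the gene, and the promoter at the annotated start of RB1 was not examined. The annotated gene bounds also begin upstream of the CDK4 and CDKN1B starts used here. These are matches of letters only. The E-box was added to the motifs after it was seen in the CDK4 window, so its share over all windows does not test the CDK4 matches.

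RB1 (ENSG00000139687, chromosome 13, 48303726 to 48599436, plus strand), which encodes the substrate of the D-cyclin kinases, was present in every library. It was measured at 33.4, 30.4 and 43.1 CPM in PCDH, 43.3, 37.5 and 37.5 CPM in IDH1mt and 40.8, 40.8 and 32.8 CPM in C269S. The groups overlapped, with PCDH replicate 3 above the other PCDH libraries. The log2 difference between IDH1mt and PCDH was 0.15 (SE 0.11, 95% interval -0.08 to 0.37, adjusted p = 0.439), and it became 0.31 and passed without PCDH replicate 3 (adjusted p = 0.0169). RB1 had the widest interval of the 6 genes tested.

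The INK4 genes gave no reads. CDKN2A (p16 and ARF; ENSG00000147889, chromosome 9, 21967753 to 21995301, minus strand), CDKN2B (p15; ENSG00000147883, 22002903 to 22009363, minus strand) and CDKN2C (p18; ENSG00000123080, chromosome 1, 50960745 to 50974633, plus strand) had 0 reads in each of the 9 libraries. Taking 3 reads as the limit that a count of 0 allows, each is below 0.123 to 0.161 CPM depending on the library, a limit that covers counting error only. For comparison, 11.7% of 776 protein-coding genes on chromosome 9 and 12.9% of 2043 on chromosome 1 were at 0 in all libraries.

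Around CDKN2A and CDKN2B, within 1 Mb on either side, none of the 24 annotated protein-coding genes, CDKN2A and CDKN2B included, had more than 3 reads over all libraries together. Of these, 16 are interferon genes. MTAP, the methionine salvage enzyme next to CDKN2A (21802543 to 21937651), had 3 reads in all, FOCAD (20658309 to 20995955) 1 and HACD4 (20999515 to 21031636) 2, while KLHL9 and DMRTA1 had 0. The antisense RNA CDKN2B-AS1 and the divergent transcript CDKN2A-DT were at 0 as well. The nearest protein-coding genes with enough reads to be tested were SLC24A2, 2.18 Mb to the side of lower coordinates, with 201 to 304 reads per library, and ELAVL2, 1.68 Mb to the other side, with 25 to 68 reads.

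CDKN2C lies elsewhere, and its surroundings were examined after its counts had been seen. Of 12 protein-coding genes within 1 Mb, 5 were at 0 in all libraries, CDKN2C among them. The others were AGBL4, ELAVL4, DMRTA2 and C1orf185, and whether such cells usually express them was not examined. FAF1, whose start lies beside CDKN2C and which encodes a FAS-associated factor (50437028 to 50960263), had 6 reads in all. The nearest tested protein-coding gene on that side of lower coordinates was BEND5, 2.18 Mb away, with only 3 to 17 reads per library. On the other side the reads began at RNF11, a ubiquitin ligase gene 0.262 Mb away, with 1895 to 2509 reads per library. All 6 genes from RNF11 to RAB3B had reads in every library. Loss of CDKN2C has been described for U87 as background, but DNA was not measured here, and counts alone cannot tell an absent gene from a silent one.

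**Figure D3:**
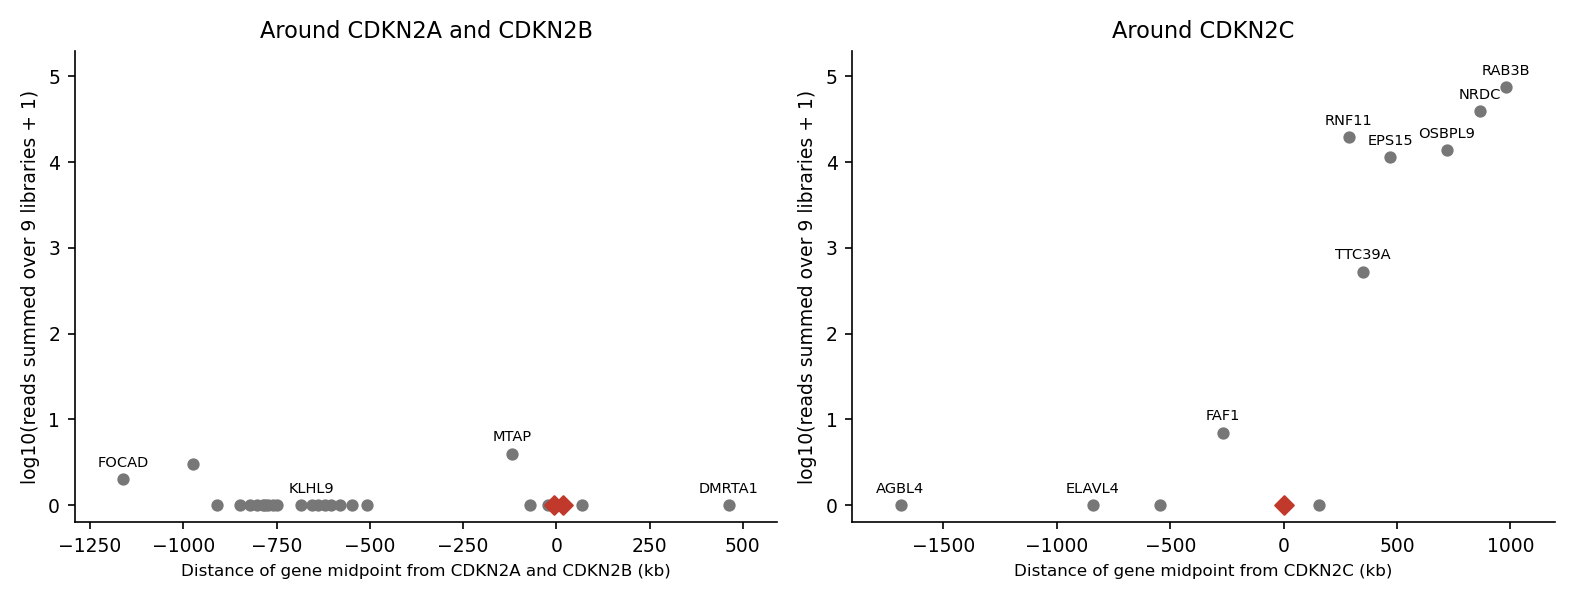
Reads summed over the 9 libraries, as log10(reads + 1), for protein-coding genes and 2 noncoding RNAs within 1 Mb of CDKN2A and CDKN2B (left) and of CDKN2C (right), against the distance of the gene midpoint in kb; red diamonds are the INK4 genes. On the left no gene exceeds 3 reads; on the right reads are near 0 up to and beyond CDKN2C and start at RNF11.

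The fourth INK4 gene, CDKN2D (p19), was present, with means of 36.6, 32.6 and 37.9 CPM in PCDH, IDH1mt and C269S. Its log2 difference was -0.17 between IDH1mt and PCDH and 0.22 between the mutants, and neither passed (edgeR adjusted p = 0.206 and 0.164, unadjusted p = 0.0562 and 0.0158). Every IDH1mt library of CDKN2D lay below every library of the other groups. In the list of 4 further inhibitors (CDKN1A, CDKN1C, CDKN2D and CDKN3) 1, CDKN1A, passed in IDH1mt against PCDH and in C269S against IDH1mt. There 14.1% and 4.9% of all genes were called. None of the 4 passed in C269S against PCDH, where 1.42% of all genes were called. CDKN1C had only 0 to 20 reads per library. Its log2 difference of -0.61 between IDH1mt and PCDH (SE 0.75) did not pass, although it was larger in size than that of CDKN1A. CDKN1A (p21), which binds cyclin-CDK complexes and is a target of p53, was 1.43-fold lower in IDH1mt than in PCDH (380 ± 13.0 to 265 ± 2.23 CPM, n = 3 each, log2 fold change -0.52, edgeR adjusted p = 1.1e-08). It was 1.41-fold higher in C269S than in IDH1mt (log2 fold change 0.50, adjusted p = 5.5e-08). CDKN1A and CDKN1B, of the same inhibitor family, thus differed in opposite directions.

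Counted over the 10 genes, 6 could be tested. The 10 genes were chosen with earlier results of these data known, so the shares over all genes give the scale only. In IDH1mt against PCDH, 2 were lower (CCND1 and CDK4), 1 was higher (CDKN1B) and 3 did not pass, where 14.1% of all 16874 genes tested were called (6.9% lower and 7.18% higher). Without PCDH replicate 3, RB1 also passed as higher, and CCND1 alone was lower without PCDH replicate 2 or IDH1mt replicate 2 or 3. In C269S against PCDH, edgeR called none of the 6, where 1.42% of all genes were called (0.883% higher and 0.533% lower), and none had an unadjusted p under 0.05. DESeq2 and limma-voom called none either. In C269S against IDH1mt, CCND1 was higher and CDKN1B lower, where 4.9% of all genes were called (2.29% higher and 2.61% lower). That comparison shares its IDH1mt libraries with the first, so their opposite signs are not separate evidence. The median log2 difference over the 6 genes was -0.10, -0.08 and 0.04 in the 3 comparisons, beside -0.01, -0.01 and 0.00 over all genes.

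**Figure D4:**
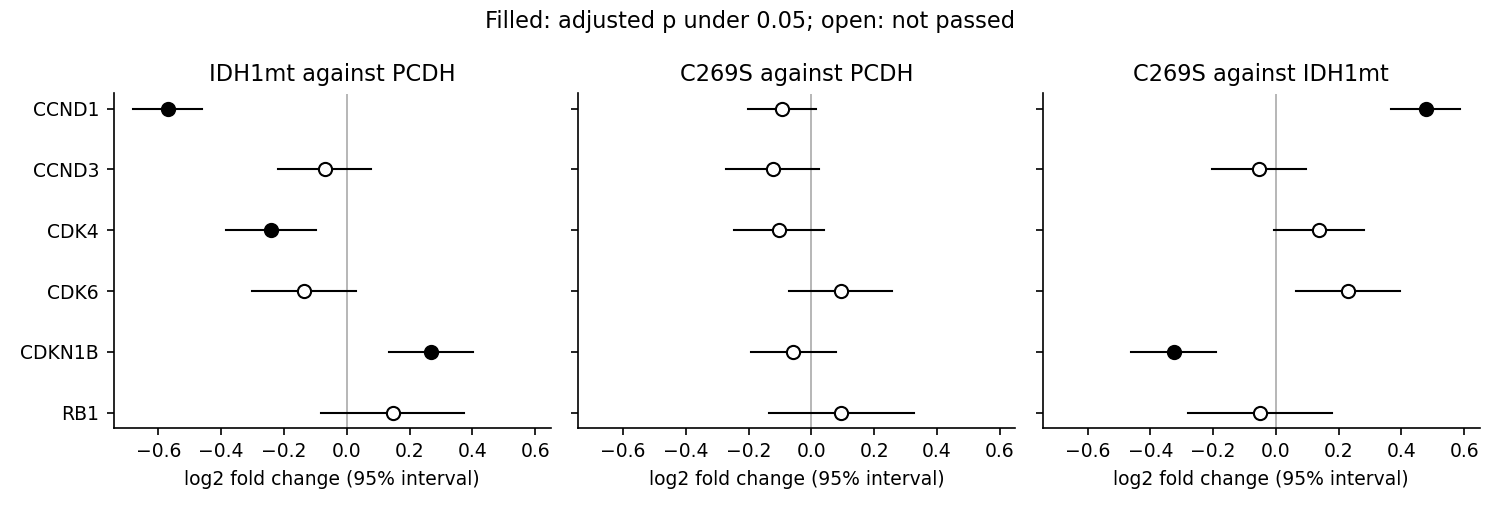
Log2 fold change with 95% interval (horizontal axis) of the 6 tested genes in the 3 comparisons; filled points passed an adjusted p under 0.05. CCND1 has the largest differences, -0.57 in IDH1mt against PCDH and 0.48 in C269S against IDH1mt, with CDKN1B on the opposite side, and no point is filled in C269S against PCDH.

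The other genes of the pathway were taken from 7 lists holding 68 genes, all of which could be tested. These lists, and that of the proliferation markers below, were chosen with earlier results of these data known. The shares over all genes set beside their counts therefore give the scale and do not test whether a list is enriched. In IDH1mt against PCDH 15 were lower, 3 higher and 50 did not pass (median log2 fold change -0.09), where 6.9% of all genes were lower and 7.18% higher. In C269S against IDH1mt 9 were higher, 1 lower and 58 did not pass (median 0.11), where 2.29% of all genes were higher and 2.61% lower. In C269S against PCDH edgeR and limma-voom called none of the 68, DESeq2 called 1, and 9 had an unadjusted p under 0.05, where 1.42% of all genes were called and 2019 of 16874 had such a p. There 2 were higher without PCDH replicate 3, and 1 was higher and 1 lower without C269S replicate 3. Leaving out single libraries moved the 3 higher genes to 1 (without PCDH replicate 1, IDH1mt replicate 1 or 3, or C269S replicate 1 or 2) and the 9 to 5, 3 and 4 (without IDH1mt replicate 1, 2 and 3) or 3 (without C269S replicate 2). The 15 lower in IDH1mt against PCDH ranged from 11 to 15 with single libraries left out. With library size alone the IDH1mt against PCDH counts were 19 lower and 1 higher, and the share of higher calls over all genes went from 51% to 35.2%. In C269S against IDH1mt that share went from 46.8% to 60.1%, with 11 pathway genes higher.

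Among 17 S-phase targets of E2F, 9 were lower in IDH1mt than in PCDH, none was higher and 8 did not pass (median log2 fold change -0.18), beside 6.9% lower over all genes. That share gives the scale only, since the list was chosen with earlier results of these data known. On the log2 scale the helicase subunits MCM5, MCM2 and MCM3 fell by 0.41, 0.37 and 0.32 (edgeR adjusted p = 1.7e-05, 0.000305 and 0.00046). CDT1, which loads that helicase onto origins, fell by 0.48 (adjusted p = 0.00139). In C269S against IDH1mt 5 of the 17 were higher (median 0.16), beside 2.29% over all genes. PCNA, the sliding clamp, rose 1.27-fold from 45.8 ± 1.33 to 58.0 ± 0.732 CPM, and MCM3 rose 1.22-fold. MCM5 and MCM7 rose 1.20-fold and 1.17-fold. The MCM5 call was lost without IDH1mt replicate 1 or 2 or C269S replicate 2 (adjusted p = 0.076, 0.0714 and 0.0507), and that of MCM7 without IDH1mt replicate 2 or 3 or C269S replicate 2 or 3 (adjusted p = 0.0966, 0.103, 0.0524 and 0.0781).

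Of 14 pocket protein relatives, E2F factors and partners, 3 were lower in IDH1mt than in PCDH (6.9% over all genes) and 11 did not pass. E2F1, an activator of S-phase genes, fell by 0.34 on the log2 scale from 129 ± 8.08 to 102 ± 5.60 CPM (n = 3 each, edgeR adjusted p = 0.000412), and E2F8, a repressor of the family, fell by 0.47 (adjusted p = 0.00552). E2F2, another activator, fell by 0.57 (adjusted p = 0.0176), a call that ended when IDH1mt replicate 1 (adjusted p = 0.0717) or PCDH replicate 2 (0.082) was left out. RBL1 and RBL2, relatives of RB1, did not pass (log2 fold changes 0.06 and 0.12). In C269S against IDH1mt E2F8 and E2F1 rose, 1.37-fold and 1.16-fold. The E2F8 call was lost without any 1 IDH1mt library or C269S replicate 2 (adjusted p from 0.05 to 0.139). The E2F1 call (adjusted p = 0.0473) was lost without any 1 of the 6 libraries of the mutants (adjusted p from 0.0561 to 0.263). It was also lost with limma-voom (0.057), DESeq2 size factors (0.0504), the replicate block (0.0981) and limma on log2 FPKM (0.108 with either pseudocount).

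None of the 8 genes around cyclin E, cyclin A and CDK2 was called by edgeR, DESeq2 or limma-voom in any comparison. Over all genes edgeR called 14.1% in IDH1mt against PCDH, 1.42% in C269S against PCDH and 4.9% in C269S against IDH1mt. Beside these shares, the absence of calls among so few genes says little. In IDH1mt against PCDH 3 of the 8, CDK2, MNAT1 and CDC25A, had an unadjusted p under 0.05, with log2 differences of -0.19, -0.23 and -0.32, as did 4396 of all 16874 genes. In C269S against IDH1mt 3 also had one, CCNA2, MNAT1 and CDC25A, with log2 differences of 0.16, 0.23 and 0.37, as did 2817 of all genes. The CDK4 chaperone genes CDC37, HSP90AA1 and HSP90AB1 were not called either, beside the same shares. In IDH1mt against PCDH 1 of them, CDC37 (log2 difference -0.15), had an unadjusted edgeR p under 0.05. Of 7 ubiquitin ligase genes acting on cyclin D or p27, 2 were lower in IDH1mt than in PCDH (6.9% over all genes). SKP2, which targets p27 for destruction, fell by 0.47 on the log2 scale from 19.5 ± 3.75 to 14.1 ± 0.708 CPM (adjusted p = 0.00811), a call lost without PCDH replicate 3 (log2 difference -0.31, adjusted p = 0.0663). FBXO4, a cyclin D1 ligase subunit, fell by 0.46 (adjusted p = 0.0288), a call lost without PCDH replicate 2 (adjusted p = 0.193) or any 1 IDH1mt library (adjusted p = 0.0603, 0.0775 and 0.101).

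Of 15 transcription factors known to act on cyclin D or p27 genes, 3 were higher in IDH1mt than in PCDH and 12 did not pass, where 7.18% of all genes were higher, and of these 3 only the JUN call held in every alternative run. JUN, a subunit of AP-1, rose 1.24-fold from 609 ± 24.7 to 758 ± 18.3 CPM (edgeR adjusted p = 5.7e-05) and was 1.24-fold lower in C269S than in IDH1mt (adjusted p = 0.000157). MYC rose 1.16-fold (adjusted p = 0.0425) and FOXO1, which activates p27, 1.62-fold at 4.60 CPM (adjusted p = 0.0458). The MYC call was lost without any 1 IDH1mt library, PCDH replicate 1 or 3 or C269S replicate 1 or 2 (adjusted p from 0.0539 to 0.131), and with library size alone (0.118), the replicate block (0.0774) or no filter on low counts (0.0955). Leaving out PCDH replicate 1, IDH1mt replicate 1 or 3 or any 1 C269S library ended the FOXO1 call (adjusted p from 0.0515 to 0.27), and the log2 difference of 0.69 came down to 0.44 without PCDH replicate 1. It was also lost with limma-voom (0.0588), the replicate block (0.0607), library size alone (0.0628), the 6 libraries of the 2 groups alone (0.0641) and limma on log2 FPKM (0.116 and 0.144). FOS rose 1.74-fold in C269S against IDH1mt at 5.18 CPM (adjusted p = 0.0221), a call lost without IDH1mt replicate 2 or 3 or any 1 C269S library (adjusted p from 0.0598 to 0.127).

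**Figure D5:**
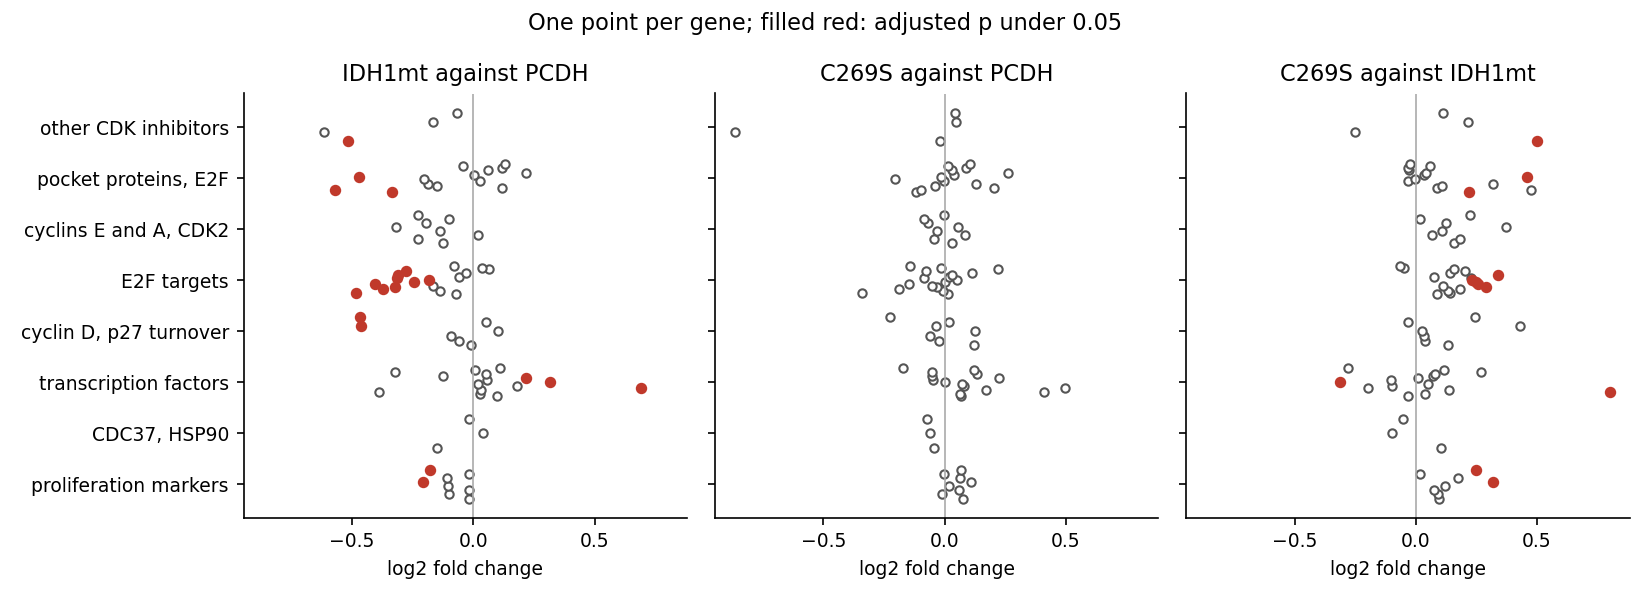
Log2 fold change (horizontal axis) of each gene in the 7 pathway lists and the proliferation markers, 1 point per gene, in the 3 comparisons; red points passed an adjusted p under 0.05. E2F targets hold 9 red points to the left of 0 in IDH1mt against PCDH and 5 to the right in C269S against IDH1mt, and no point is red in C269S against PCDH.

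Of 8 proliferation markers 2 passed, where 14.1% of all genes were called in IDH1mt against PCDH and 4.9% in C269S against IDH1mt. CDK1 and TOP2A were lower in IDH1mt than in PCDH (log2 fold changes -0.21 and -0.18) and higher in C269S than in IDH1mt (0.32 and 0.25), and the other 6 passed in neither comparison. AURKA, PLK1, BUB1, BIRC5 and MKI67 overlapped between IDH1mt and PCDH, with log2 differences between -0.11 and -0.02. CCNB1 did not overlap, at 185, 173 and 187 CPM in IDH1mt and 194, 189 and 202 CPM in PCDH, and neither did CDK1 and TOP2A. The share of all genes without overlap was not counted, so overlap is given as a description only. CCNB1 and MKI67 had an unadjusted edgeR p under 0.05 in C269S against IDH1mt, as did 2817 of all 16874 genes. In C269S against PCDH none of the 8 markers was called by edgeR, DESeq2 or limma-voom, and none had an unadjusted p under 0.05. Their summed level was 1630 to 1808 CPM in PCDH, 1531 to 1602 CPM in IDH1mt and 1737 to 1822 CPM in C269S, without overlap between IDH1mt and either other group. The call of CDK1 against PCDH was lost without PCDH replicate 1 or any 1 IDH1mt library (adjusted p = 0.0637, 0.0753, 0.0793 and 0.098). That of TOP2A was lost without PCDH replicate 3, any 1 IDH1mt library or C269S replicate 1 or 2 (adjusted p from 0.0524 to 0.231), and its log2 difference fell to -0.10 without PCDH replicate 3. DESeq2 did not call it (adjusted p = 0.0581). Nor did edgeR with DESeq2 size factors (0.0506), with only the 6 libraries of the 2 groups (0.0586) or with the replicate block (0.0691). Between the mutants the TOP2A call was lost without C269S replicate 1 or 2 or without IDH1mt replicate 1 (adjusted p = 0.0593, 0.0758 and 0.0761). The part of a different share of dividing cells in the values of CCND1, CDKN1B and the E2F targets was not tested, and in bulk RNA fewer expressing cells and less RNA per cell cannot be told apart.

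The genes most like CCND1 over the 9 libraries were chosen by the root mean square difference of centred log2 CPM over 11608 candidates (tested protein-coding genes averaging 1 log2 CPM or more). The 5 closest were PTGES, a prostaglandin E synthase (0.0519), SCG5, a secretory granule chaperone (0.0623), INSIG1, a regulator of cholesterol synthesis (0.0647), MAP2K3, a kinase upstream of p38 (0.0668), and MOK, a kinase related to MAP kinases (0.068), where the median gene was at 0.278. Since they were chosen for likeness over these same libraries, their fold changes are close to those of CCND1 by construction and are given as a description. They lay between -0.60 and -0.50 in IDH1mt against PCDH, beside -0.57 for CCND1, and between 0.43 and 0.47 in C269S against IDH1mt, beside 0.48.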

How the data were processed

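The members and lists were chosen with earlier results of these data known. The deposited counts are whole-number reads per gene in 9 libraries, 3 per group. The submitters' processing notes name HISAT2 2.0.5, featureCounts 1.5.0-p3 and the build GRCh38. Not given in the sources used here: annotation release, library kit and strand setting. Deposited FPKM values equal count divided by gene length and library total, times 1 factor per library between 0.969 and 1.02. They were used to compare genes per length and in 2 alternatives. The gene length is a deposited column of bases, with 1 value per gene and no other unit. The order of genes and the shares per length depend on it.

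Column names (Control, mt, CS) gave each column's group. The main test was edgeR 4.0.16 (R 4.3.3): filterByExpr (16874 genes kept), TMM scaling, a robust quasi-likelihood F test, 1 mean per group over the 9 libraries. P-values were adjusted by Benjamini and Hochberg over all genes tested, with calls under 0.05. The SE was taken as |log2 fold change| over √F. Named were the 10 members, IDH1, up to 4 called genes with the lowest adjusted p per list and comparison, the 5 genes most like CCND1 and protein-coding genes within 1 Mb of CDKN2A and CDKN2B. Genes around CDKN2C, the nearest tested genes on either side, overlapping genes and list genes given without a call (such as CDKN2D, RBL1, CDK2 and CDC37) were named after their values were seen. Shares were compared by exact two-sided permutation tests. The fit was tested on simulated counts. The recovery there fell short of the criterion first set, and of a second one, so the criterion was changed to genes from 10 CPM, with no change to the fit. Below 10 CPM, where E2F2, FBXO4, FOXO1 and FOS lie, many known changes were missed in that test. Alternatives were DESeq2 1.42.0, limma 3.58.1 (voom, or log2 of FPKM plus 1 or 0.1), other scalings, filters and thresholds, only a comparison's own 6 libraries, the replicate block and each library left out. Promoter windows came from RefSeq (GRCh38.p14), and motifs were searched on both strands. Motifs and the 2 printed promoters were chosen after windows and values had been seen: CRE, TCF/LEF and a hypoxia element were searched first and dropped, and the E-box was added after it was seen in the CDK4 window. Depth was 19108925 to 24803711 counts per library.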

Additional observations from a re-analysis of the deposited data

How the results depend on the processing

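CCND1 and CDKN1B kept their direction and side of the threshold in all 3 comparisons under each of the 19 alternatives run per gene, with CCND1 between -0.62 and -0.55 in IDH1mt against PCDH and between 0.45 and 0.53 in C269S against IDH1mt, and CDKN1B between 0.22 and 0.30 and between -0.34 and -0.30 (log2). Members lower in IDH1mt against PCDH numbered 1 at an adjusted p under 0.01, which lost CDK4. Members higher in C269S against IDH1mt numbered 2 with the 6 libraries of the comparison alone. Pathway genes higher in IDH1mt against PCDH numbered 1 with library size alone, with the replicate block and at an adjusted p under 0.01. Pathway genes higher in C269S against PCDH numbered 1 with DESeq2, and those higher in C269S against IDH1mt 5 with limma on log2(FPKM + 0.1) and 3 at an adjusted p under 0.01. The cause was not tested, apart from the stricter threshold itself.

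With each library left out in turn, members higher ranged from 1 to 2 in IDH1mt against PCDH and from 1 to 2 in C269S against IDH1mt, and members lower in IDH1mt against PCDH from 1 to 2. Pathway genes higher ranged from 1 to 3 in IDH1mt against PCDH, from 0 to 2 in C269S against PCDH and from 3 to 11 in C269S against IDH1mt. Pathway genes lower ranged from 11 to 15 in IDH1mt against PCDH and from 0 to 1 in C269S against PCDH. Differences that had not passed changed sign for RB1 in C269S against PCDH (range with single libraries left out -0.00773 to 0.256, the lowest without PCDH replicate 2), for RB1 in C269S against IDH1mt (-0.101 to 0.0468, above 0 without IDH1mt replicate 1 or C269S replicate 3) and for CCND3 in C269S against IDH1mt (-0.107 to 0.00112, the highest without C269S replicate 2). None of these passed. The differences in shares and sums per length kept their sign with single libraries left out, with 1 exception. The difference in CCND1 share between C269S and PCDH ranged from -0.394 to 0.734 percentage points. The difference in D-cyclin sum ranged from -43.5 to -38.3 FPKM in IDH1mt against PCDH and from 29.7 to 34.9 FPKM in C269S against IDH1mt. The replicate numbers did not pair the libraries: same-numbered libraries had correlations of deviations between -0.0871 and 0.0558, and with the replicate block the calls of the 10 genes did not change. Limma on log2 FPKM with either pseudocount also lost the calls of SKP2, CDK1, TOP2A and VIM in IDH1mt against PCDH. It lost that of CD44 in C269S against PCDH and those of E2F8 and TOP2A in C269S against IDH1mt too. Depth limits CCND2, with 3 to 9 reads per library, and the INK4 genes, whose count of 0 allows up to 3 reads.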
